A study of Mus musculus with 14 samples.

Results

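The genes described here are 10 p53 targets and senescence genes: Cdkn1a, Cdkn2a, Cdkn2b, Mdm2, Ccng1, Bax, Trp53inp1, Gdf15, Btg2 and Sesn2. They were followed as a listed set in mouse liver, each through its brightest array probe among probes that the annotation gives to 1 gene. By that rule 7 of the 10 were measured, out of 19938 genes tested. Bax, a pore-forming apoptosis effector, and Gdf15, a secreted stress cytokine, have no probe paired with them in the annotation used here. Cdkn1a, which encodes the cyclin-dependent kinase inhibitor p21, has only a probe that the annotation also gives to 4930567H12Rik, so no value was read as Cdkn1a. None of the 7 passed the test as higher in either knockout group. The probe shared with 4930567H12Rik was higher than wild type by 1.83 on the log2 scale in Mdr2-KO/IL6-KO (limma adjusted p over all probes 0.0133). In Mdr2-KO it was higher by 1.25 and did not pass (adjusted p = 0.0541). Its signal cannot be assigned to either of its 2 genes.

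RNA from tumour-free liver tissue of female mice at 14 months was hybridised to Affymetrix arrays, with 6 Mdr2-KO/IL6-KO, 5 Mdr2-KO and 3 wild-type arrays. Mdr2-KO/IL6-KO mice carry knockouts of both Mdr2 and IL-6, Mdr2-KO mice that of Mdr2 alone, and the wild-type mice are C57BL/6. The labels give no strain for the knockout groups and do not say that each array is a separate mouse, so p-values measure only the spread between these arrays. Mdr2, listed as Abcb4, is the transporter that moves phosphatidylcholine into bile, and mice without it develop chronic bile duct inflammation and later liver tumours.

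The protein p53 is a transcription factor that is held at low levels by MDM2 and accumulates after DNA damage and other stress. It then switches on genes that halt the cell cycle, repair DNA or start apoptosis, and MDM2 itself, which closes a feedback loop. Senescent cells stay out of the cell cycle through p21 and the inhibitors of the Cdkn2a and Cdkn2b genes, and they secrete cytokines, proteases and growth factor binding proteins. In liver, both hepatocytes and bile duct cells can enter this state in chronic injury.

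The form of the p53 response element sought here is a pair of adjoining half-sites of 10 bases, each with an invariant C and G. Half-sites with bases between them were not sought. The form reads alike on both strands. It was searched in the RefSeq promoter windows (GRCm38.p6) of 300 bases, from 250 before to 50 after a gene's start, allowing up to 2 mismatches outside the invariant bases. Such a match lay in 107 of 32851 windows, or 0.326%, and in 2 of the 12 windows of the 9 members found in that table. The 36 windows of 25 further p53 targets held 0 matches, which says only that these letters are not in those windows. The 250 bases before the start of both matching members are shown because they hold the matches, which stand in capitals and each have 1 mismatch. For Ccng1 these bases lie at chr11:40755287-40755536 on the minus strand, with the match at chr11:40755462-40755481. For Cdkn1a they lie at chr17:29090729-29090978 on the plus strand, with the match at chr17:29090928-29090947. The window of the other Cdkn1a start, at chr17:29093519-29093818, holds no match. A match of letters is a description and not a measured binding site.
Ccng1: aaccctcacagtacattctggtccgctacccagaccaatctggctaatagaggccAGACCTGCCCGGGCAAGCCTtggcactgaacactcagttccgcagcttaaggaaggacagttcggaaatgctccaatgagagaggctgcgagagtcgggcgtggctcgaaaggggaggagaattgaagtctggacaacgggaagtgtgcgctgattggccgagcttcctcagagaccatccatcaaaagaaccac
Cdkn1a: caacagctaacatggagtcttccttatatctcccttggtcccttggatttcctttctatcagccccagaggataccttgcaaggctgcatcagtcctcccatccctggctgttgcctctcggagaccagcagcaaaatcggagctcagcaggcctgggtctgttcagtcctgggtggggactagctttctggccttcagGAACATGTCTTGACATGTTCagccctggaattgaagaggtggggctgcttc

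The values are log2 signals, and the authors' table runs between 1.47 and 13.60 with array medians between 6.15 and 6.24. A background level was set at 5.48, so that 95% of the means of 1027 olfactory receptor genes, taken here as mostly silent in liver, lie below it. Abcb4 averaged 9.05 ± 0.20 in Mdr2-KO/IL6-KO livers, 9.01 ± 0.19 in Mdr2-KO livers and 10.36 ± 0.03 in wild-type livers (SD, n = 6, 5 and 3), lower in every knockout array. Il6 lay under the background in all groups and checks no label. The summed level of 7 hepatocyte markers was between 15.12 and 15.32 in Mdr2-KO/IL6-KO, between 15.18 and 15.31 in Mdr2-KO and between 15.16 and 15.20 in wild-type arrays, with none of the 7 under the background. Differences below are log2 values of the first-named group minus the second, and a gene is said to pass the test at an adjusted p under 0.05 (limma, Benjamini-Hochberg over 19938 genes). Both comparisons with wild type share the 3 wild-type arrays, and the Mdr2-KO arrays serve in 2 of the 3 comparisons. No measured member lies on chromosome 5, which carries both targeted genes.

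Across the set, 1 of 7 measured members, Cdkn2a, passed the test in Mdr2-KO against wild type, and it was lower. In that comparison 21% of all genes passed, 8.89% as higher and 12.1% as lower. An unadjusted p under 0.05 was reached there by 2 members, Cdkn2a and Ccng1, and by 37.5% of all genes. For these 2 members the arrays of the groups did not overlap, as for 23.5% of all genes. In Mdr2-KO/IL6-KO against wild type 0 of 7 passed in limma, beside 12.3% of all genes, 6.96% as higher and 5.33% as lower. An unadjusted p under 0.05 was reached by 0 members and 25.5% of all genes, and groups did not overlap for 0 members and 15.1% of all genes. Between Mdr2-KO/IL6-KO and Mdr2-KO 0 of 7 passed in limma, beside 8.76% of all genes, 5.04% as higher and 3.72% as lower. There 1 member, Cdkn2a, and 28.9% of all genes had an unadjusted p under 0.05, and groups did not overlap for 0 members and 7.34% of all genes. The members' median difference was -0.08 for Mdr2-KO minus wild type, 0.03 for Mdr2-KO/IL6-KO minus wild type and 0.10 for Mdr2-KO/IL6-KO minus Mdr2-KO, and over all genes it was -0.07, -0.02 and 0.06. Counts over 7 members are too few to be set apart from these shares.

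**Figure D1:**
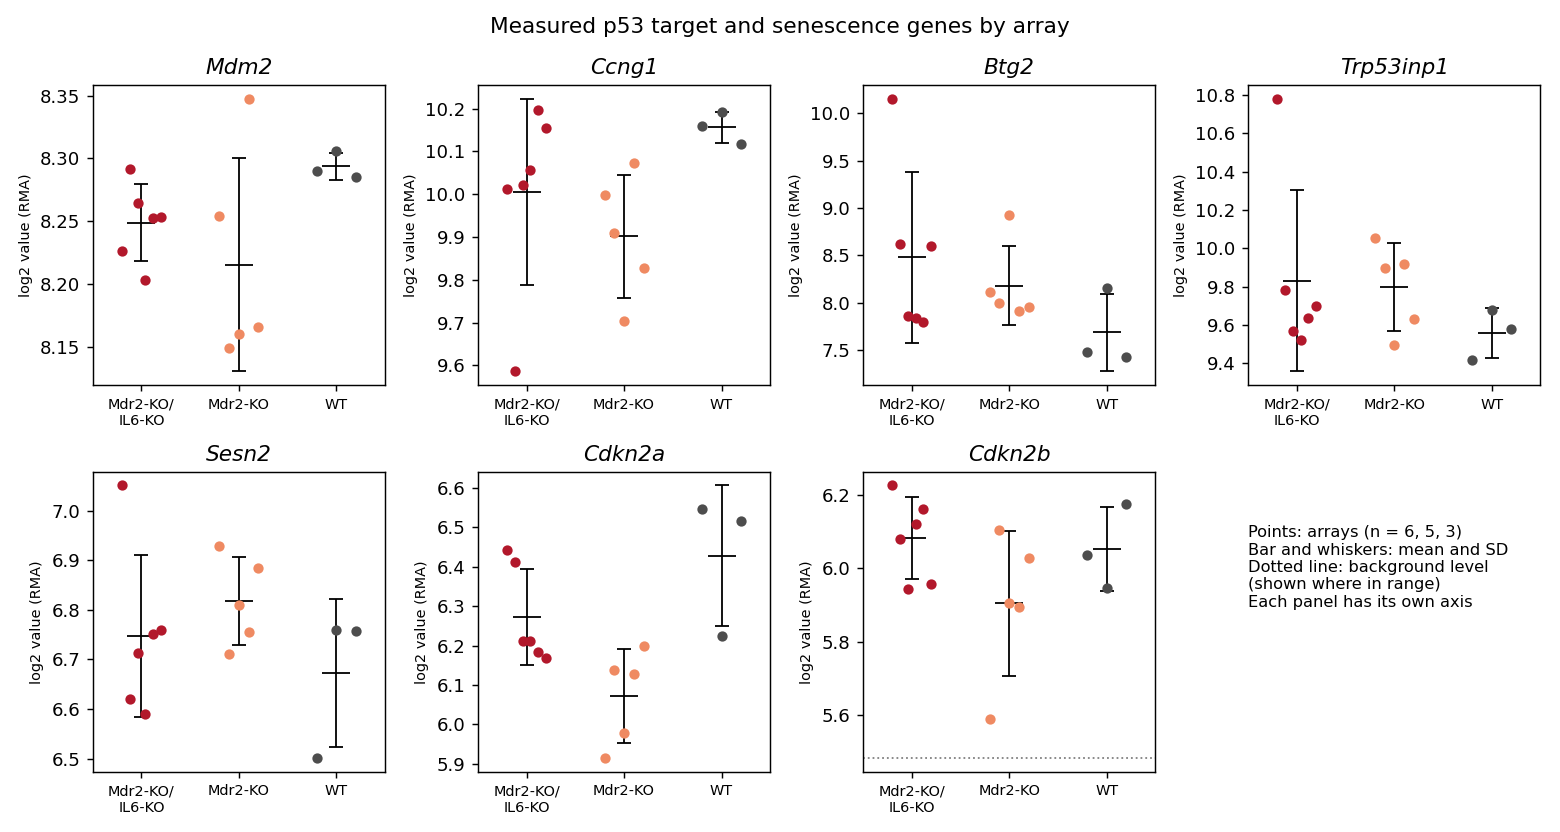
Log2 value of each measured member (vertical axis, its own scale in each panel) in every Mdr2-KO/IL6-KO, Mdr2-KO and wild-type array, with the group mean and SD as bar and whiskers and the background level as a dotted line where in range. Cdkn2a sits lower in the 5 Mdr2-KO arrays, at 5.91 to 6.20, than in the 3 wild-type arrays, and 1 Mdr2-KO/IL6-KO array stands above the rest for Btg2 and Trp53inp1.

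Mdm2 encodes the ubiquitin ligase that sends p53 to degradation and is itself a p53 target (chr10:117688875-117710758). Its level in Mdr2-KO/IL6-KO arrays ran from 8.20 to 8.29 with a median of 8.25. It was 8.25, 8.15, 8.16, 8.35 and 8.17 in Mdr2-KO arrays, and 8.29, 8.31 and 8.28 in wild-type arrays. The groups overlapped, and the whole range over 14 arrays was 0.20. The differences from wild type were -0.04 (SE 0.06, limma adjusted p = 0.699) for Mdr2-KO/IL6-KO, with a 95% interval of -0.17 to 0.08, and -0.08 (SE 0.06, adjusted p = 0.345) for Mdr2-KO, with an interval of -0.20 to 0.05. Only 1.15% of genes had a smaller spread within groups than Mdm2. By the mean absolute gap between deviations from wild type, the named genes above background most like it over the 14 arrays were Kcmf1 (0.0383), Serpinc1 (0.0388) and Zcrb1 (0.0407), against a median gap of 0.159 over 13544 genes. The gap is not scaled by spread, so any gene that stays near its wild-type mean comes out close to Mdm2.

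Ccng1, whose promoter window is shown above, encodes cyclin G1, a p53 target that binds a subunit of protein phosphatase 2A (chr11:40748552-40755309). Mdr2-KO/IL6-KO arrays ran from 9.59 to 10.20 with a median of 10.04. Mdr2-KO arrays held 9.998, 9.91, 9.70, 10.07 and 9.83, and wild-type arrays 10.16, 10.19 and 10.12. Every Mdr2-KO array was below every wild-type array, and the Mdr2-KO/IL6-KO arrays overlapped both other groups. The difference was -0.25 for Mdr2-KO minus wild type (SE 0.12, 95% interval -0.50 to -0.01), and it did not pass the test (limma adjusted p = 0.124). It passed, at an adjusted p of 0.0409, when Mdr2-KO/IL6-KO replicate 2, the lowest array of its group, was left out of the shared spread. For Mdr2-KO/IL6-KO the difference from wild type was -0.15 (SE 0.11, adjusted p = 0.457), and from Mdr2-KO 0.10 (SE 0.10, adjusted p = 0.488). Most like Ccng1 by the same measure were Slc9a9 (0.0592), Snap29 (0.0676) and Zfp706 (0.0711), against a median gap of 0.218.

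Btg2 encodes an antiproliferative protein of the BTG/TOB family that p53 and many growth signals induce (chr1:134074865-134079155). Its level in Mdr2-KO/IL6-KO arrays ran from 7.80 to 10.15 with a median of 8.23. The Mdr2-KO arrays had 8.12, 7.99, 8.92, 7.92 and 7.96, and the wild-type arrays 7.48, 8.16 and 7.42. All groups overlapped, with replicate 1 high among the Mdr2-KO/IL6-KO arrays, replicate 3 among the Mdr2-KO arrays and replicate 2 among the wild-type arrays. Means were 8.48 ± 0.90 in Mdr2-KO/IL6-KO, 8.18 ± 0.42 in Mdr2-KO and 7.69 ± 0.41 in wild-type livers (SD, n = 6, 5 and 3). The difference of 0.79 for Mdr2-KO/IL6-KO minus wild type (SE 0.41, 95% interval -0.08 to 1.66) did not pass the test (limma adjusted p = 0.247), nor did that of 0.50 for Mdr2-KO (SE 0.42, interval -0.40 to 1.39, adjusted p = 0.406). Without Mdr2-KO/IL6-KO replicate 1 the first difference was 0.46, and without Mdr2-KO replicate 3 the second was 0.31. Within groups, 99.6% of genes had a smaller spread than Btg2.

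Trp53inp1, a nuclear stress protein that promotes p53 activity and is a p53 target (chr4:11156441-11174379), showed the same replicate 1 at the top. Mdr2-KO/IL6-KO arrays ran from 9.52 to 10.78 with a median of 9.67. The Mdr2-KO arrays had 10.05, 9.90, 9.49, 9.92 and 9.63, and the wild-type arrays 9.42, 9.68 and 9.58. The 3 groups overlapped. Neither difference from wild type passed the test: 0.27 for Mdr2-KO/IL6-KO (SE 0.22, 95% interval -0.18 to 0.73, limma adjusted p = 0.485) and 0.24 for Mdr2-KO (SE 0.22, interval -0.23 to 0.72, adjusted p = 0.443). Without replicate 1 the Mdr2-KO/IL6-KO minus wild type difference was 0.084, and that of Mdr2-KO/IL6-KO minus Mdr2-KO turned to -0.16, against 0.03 with it.

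Sesn2 encodes sestrin 2, which restrains mTORC1 and is induced by p53 and by the stress factor ATF4 (chr4:132492804-132510456). Mdr2-KO/IL6-KO arrays ran from 6.59 to 7.05 with a median of 6.73. Mdr2-KO arrays held 6.93, 6.71, 6.81, 6.76 and 6.88, and wild-type arrays 6.50, 6.76 and 6.76. The groups overlapped, and all differences lay within 0.15 of 0 on the log2 scale. For Mdr2-KO minus wild type it was 0.15 (SE 0.10, limma adjusted p = 0.287), and for Mdr2-KO/IL6-KO minus wild type 0.07 (SE 0.09, adjusted p = 0.697).

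Cdkn2a, the senescence locus that encodes both the kinase inhibitor p16INK4a and the MDM2 inhibitor p19ARF (chr4:89274473-89294619), was the only member to pass the test. Its probe is annotated to the gene as a whole, so the 2 products were not told apart. Mdr2-KO/IL6-KO arrays ran from 6.17 to 6.44 with a median of 6.21. The Mdr2-KO arrays had 5.91, 6.14, 5.98, 6.13 and 6.20, and the wild-type arrays 6.55, 6.22 and 6.52. Every Mdr2-KO array lay below every wild-type array, closely so for Mdr2-KO replicate 5 and wild-type replicate 2. The level averaged 6.27 ± 0.12 in Mdr2-KO/IL6-KO, 6.07 ± 0.12 in Mdr2-KO and 6.43 ± 0.18 in wild-type livers (SD, n = 6, 5 and 3). Cdkn2a fell by 0.36 on the log2 scale in Mdr2-KO against wild type (SE 0.10, 95% interval -0.56 to -0.15, limma adjusted p = 0.0169). Its lowest value was 5.91, and the background level is 5.48. In the same comparison the olfactory receptor genes had a median difference of -0.11, and the part of such a shift was not tested. The call held after quantile normalization (limma adjusted p = 0.0222) and after centring (0.0161). The call ended without wild-type replicate 1 (-0.30, adjusted p = 0.0757) or wild-type replicate 3 (-0.31, adjusted p = 0.0817). In whole tissue, fewer cells of a type and less RNA per cell cannot be told apart. In the same arrays 2 of 3 B cell markers and 1 of 4 T cell markers fell in Mdr2-KO against wild type. So did 1 of 7 hepatocyte markers, 1 of 8 stellate and fibroblast markers and 12.1% of all genes. In Mdr2-KO/IL6-KO against wild type 2 of 3 B cell markers, 2 of 4 T cell markers and 5.33% of all genes fell. The B cell markers summed to 7.28 to 8.22 in Mdr2-KO/IL6-KO, 7.05 to 7.71 in Mdr2-KO and 7.88 to 9.10 in wild-type arrays. The part of any of these cells in the Cdkn2a difference was not tested. Between Mdr2-KO/IL6-KO and Mdr2-KO the difference was 0.20 (SE 0.08, 95% interval 0.03 to 0.37) and did not pass (adjusted p = 0.114). From wild type, Mdr2-KO/IL6-KO differed by -0.16 (SE 0.09, interval -0.35 to 0.04, adjusted p = 0.325).

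Cdkn2b, the neighbouring gene of the kinase inhibitor p15INK4b (chr4:89306289-89311032), passed no test. Mdr2-KO/IL6-KO arrays ran from 5.94 to 6.23 with a median of 6.10. Mdr2-KO arrays held 5.59, 6.11, 5.91, 5.89 and 6.03, and wild-type arrays 6.04, 5.95 and 6.18. The groups overlapped, and all 14 arrays lay above the background level. The difference was -0.15 for Mdr2-KO minus wild type (SE 0.10, limma adjusted p = 0.307), 0.03 for Mdr2-KO/IL6-KO minus wild type (SE 0.10, adjusted p = 0.902) and 0.18 for Mdr2-KO/IL6-KO minus Mdr2-KO (SE 0.09, adjusted p = 0.183).

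**Figure D2:**
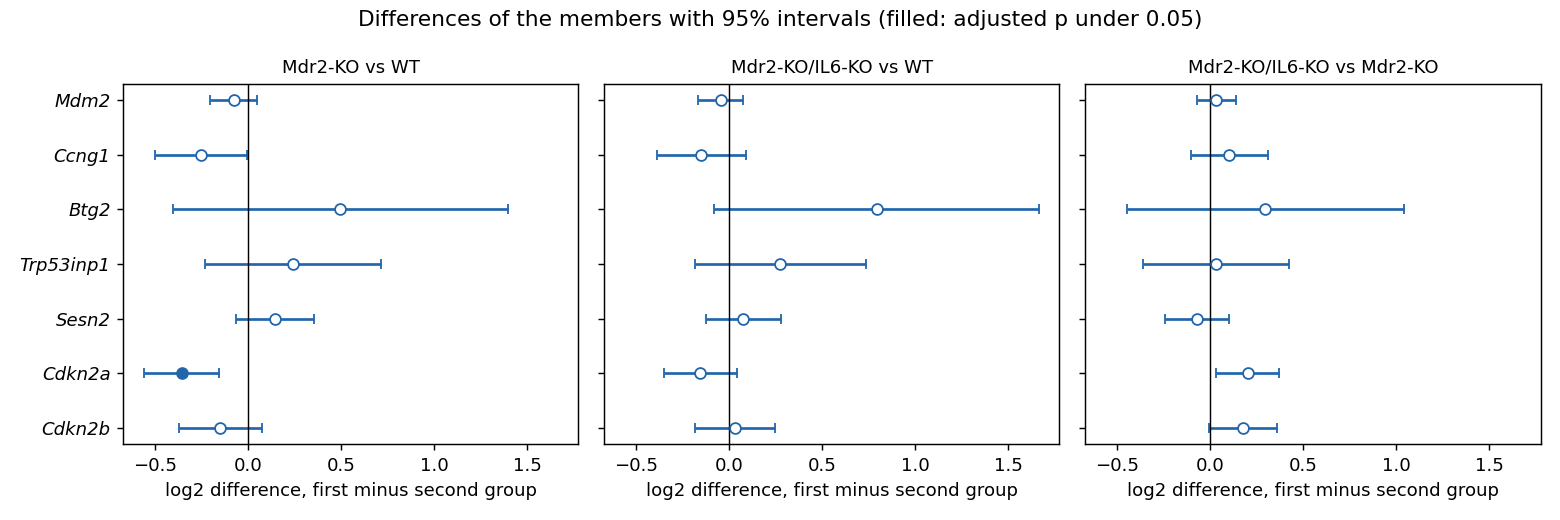
Log2 difference (horizontal axis, first-named minus second-named group) of the 7 measured members in the 3 comparisons, with 95% intervals of the fit, filled where the adjusted p was under 0.05. Cdkn2a in Mdr2-KO against wild type, at -0.36, is the single filled point, and the interval of Btg2 is the widest in each panel.

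Replicate 1 of the Mdr2-KO/IL6-KO group was the highest of its 6 arrays for 5 of 7 members, against 20.8% of all genes. Ranked by the gap to the next array among 19938 genes, Btg2 stood 3rd with 1.54, Trp53inp1 12th with 1.0 and Sesn2 183rd with 0.29. The other genes among the first 5 were Rgs1 (2.25), Ppp1r3g (1.59), Dusp1 (1.37) and Mucl2 (1.36). The array was also highest for 8 of 17 genes of the ATF4 response and 10 of 18 proliferation genes, for 3 of 3 B cell markers, for 9 of 33 further p53 targets and for 1 of 7 hepatocyte markers. It was highest for 0 of 7 bile duct, 0 of 5 Kupffer, 0 of 6 recruited macrophage, 0 of 4 T cell and 0 of 4 neutrophil markers. For stellate and endothelial markers it was 2 of 8 and 2 of 5. Among p53 regulators, CDK inhibitor and RB genes, secreted factors and BCL2 family genes it was 3 of 18, 4 of 23, 4 of 23 and 2 of 16. What sets this array apart was not tested.

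**Figure D3:**
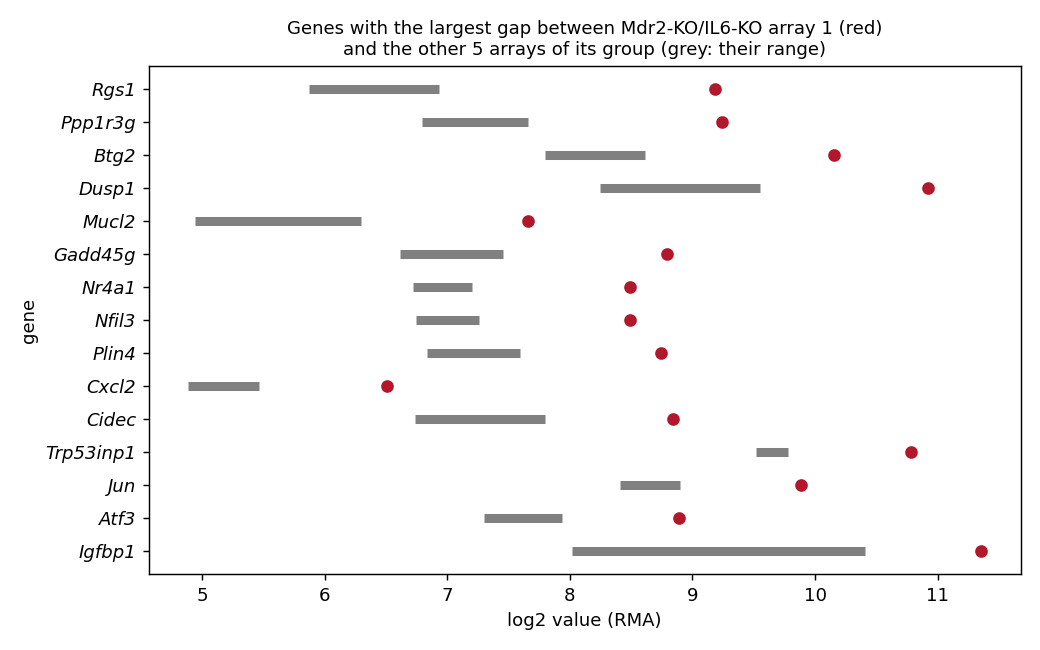
Log2 value (horizontal axis) of Mdr2-KO/IL6-KO replicate 1 as a red point, for the 15 genes with the largest gap to the other 5 arrays of the group, whose range is the grey bar. Btg2 and Trp53inp1 are among them, with gaps of 1.54 and 1.0.

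Of 34 further p53 target genes 33 were measured. In Mdr2-KO against wild type 6 rose and 1 fell, in Mdr2-KO/IL6-KO against wild type 7 rose and 1 fell, and in Mdr2-KO/IL6-KO against Mdr2-KO 6 rose and 0 fell. Of all genes 21%, 12.3% and 8.76% passed in these comparisons in either direction. As higher 8.89%, 6.96% and 5.04% passed, and as lower 12.1%, 5.33% and 3.72%. The list's median differences were 0.02, 0.13 and 0.12, beside -0.07, -0.02 and 0.06 over all genes. Without wild-type replicate 1 the first count was 2, all higher, and without wild-type replicate 3 the second was 5, all higher. Between the knockout groups the count was 4 after quantile normalization and 2 after centring of the arrays, all higher. It was 2 without Mdr2-KO replicate 1, Mdr2-KO replicate 3 or Mdr2-KO/IL6-KO replicate 4, and 3 without Mdr2-KO/IL6-KO replicate 5 or 6. At a 1.5-fold minimum it was 0, and the count in Mdr2-KO/IL6-KO against wild type was 3.

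Steap3, an endosomal ferrireductase, rose most among these targets in both comparisons with wild type. It held 8.86 to 9.15 (median 8.97) in Mdr2-KO/IL6-KO arrays, 8.65, 8.81, 8.77, 8.79 and 8.69 in Mdr2-KO arrays, and 7.88, 8.03 and 8.17 in wild-type arrays. The 3 groups did not overlap. The differences were 0.98 for Mdr2-KO/IL6-KO minus wild type (SE 0.08, limma adjusted p = 2.14e-06) and 0.72 for Mdr2-KO minus wild type (SE 0.08, adjusted p = 4.62e-05), and both calls held with any 1 array left out. Ephx1, the microsomal epoxide hydrolase, ran from 11.46 to 11.86 in Mdr2-KO/IL6-KO arrays, the median being 11.61. It held 11.42, 11.44, 10.75, 11.55 and 11.51 in Mdr2-KO arrays, and 10.58, 10.90 and 10.74 in wild-type arrays. All Mdr2-KO/IL6-KO arrays were above wild type, while Mdr2-KO replicate 3 lay among the wild-type arrays. Ephx1 rose by 0.90 (SE 0.15, adjusted p = 0.00106) in Mdr2-KO/IL6-KO and by 0.60 (SE 0.15, adjusted p = 0.0136) in Mdr2-KO, a call that ended without wild-type replicate 1 (adjusted p = 0.0612).

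Tnfrsf10b, the mouse death receptor for TRAIL, was higher in Mdr2-KO/IL6-KO than in both other groups. Its level was 6.41 to 6.60 (median 6.47) in Mdr2-KO/IL6-KO arrays, 6.18, 6.16, 6.08, 6.20 and 6.04 in Mdr2-KO arrays, and 5.75, 5.92 and 6.16 in wild-type arrays. No Mdr2-KO/IL6-KO array overlapped another group. It rose by 0.37 against Mdr2-KO (SE 0.07, limma adjusted p = 0.00635) and by 0.55 against wild type (SE 0.08, adjusted p = 0.00048), and both calls held with any 1 array left out. Dyrk3, a kinase of the DYRK family, rose by 0.46 (SE 0.09, adjusted p = 0.0029) in Mdr2-KO/IL6-KO and by 0.49 (SE 0.09, adjusted p = 0.00207) in Mdr2-KO against wild type, with no overlap. Epha2, an ephrin receptor, rose by 0.72 (SE 0.17, adjusted p = 0.0116) and 0.63 (SE 0.18, adjusted p = 0.0206), calls that ended without wild-type replicate 2 (adjusted p = 0.0554 and 0.0618) and, for Mdr2-KO, without replicate 1 (0.0548). Plk2, a polo-like kinase, rose by 0.56 in Mdr2-KO/IL6-KO against wild type (adjusted p = 0.0252), which ended without wild-type replicate 1 (0.0817) or 3 (0.14).

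Lif, a cytokine of the IL-6 family, rose by 0.37 in Mdr2-KO/IL6-KO against Mdr2-KO (SE 0.08, limma adjusted p = 0.0124), with no overlap but with every array under the background level. Phlda3, an inhibitor of AKT, rose by 0.37 there (SE 0.10, adjusted p = 0.0315), and Eda2r, a receptor of the TNF receptor family, by 0.38 (SE 0.11, adjusted p = 0.0401). After centring, neither passed (adjusted p = 0.0523 and 0.0654), nor did Eda2r after quantile normalization (0.136), and the calls ended with 7 and 9 of 14 single arrays left out. Eda2r lay near or under the background level. Eda2r was also the 1 target that fell in Mdr2-KO against wild type, by 0.45 (adjusted p = 0.0234, but 0.101 after quantile normalization, 0.0565 without wild-type replicate 1 and 0.0975 without replicate 3). In Mdr2-KO/IL6-KO against wild type the fall was in Perp, a membrane protein of desmosomes, at -0.28 (adjusted p = 0.0207), a call that ended without wild-type replicate 1 (0.0836) or 3 (0.105).

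**Figure D4:**
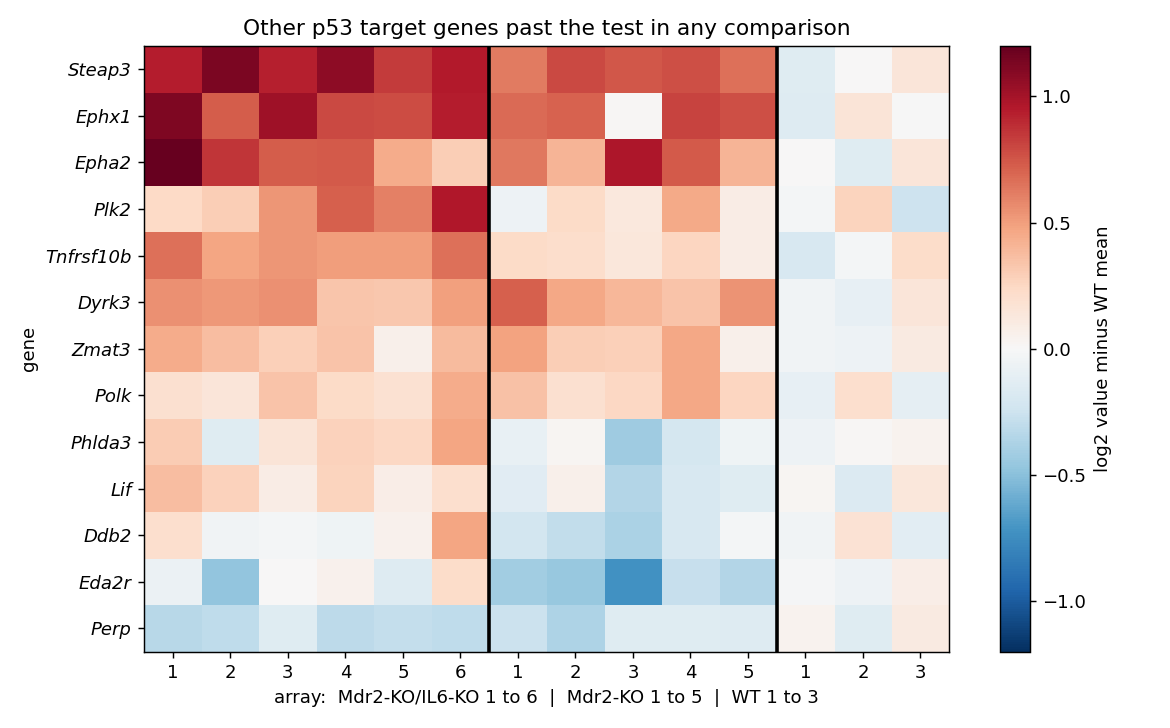
Log2 value minus the wild-type mean (colour) of each further p53 target that passed the test in any comparison (rows), in the 6 Mdr2-KO/IL6-KO, 5 Mdr2-KO and 3 wild-type arrays (columns). Steap3 and Ephx1 lead the rows, with differences of 0.98 and 0.90 for Mdr2-KO/IL6-KO minus wild type, and Perp is lower, at -0.28.

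Of 20 genes of p53 and its regulators 18 were measured, without Trp53 itself, which has no probe of its own in the annotation used here. In Mdr2-KO against wild type 1 rose and 2 fell, in Mdr2-KO/IL6-KO against wild type 2 rose and 1 fell, and between the knockout groups 1 fell. These counts, of 18 genes, stand beside 21%, 12.3% and 8.76% of all genes. The count in Mdr2-KO/IL6-KO against wild type was 0 without wild-type replicate 3 and 5 without Mdr2-KO/IL6-KO replicate 6. Ppm1d, the phosphatase WIP1 that reverses p53 activation and is a p53 target, fell in both comparisons with wild type. It held 7.98 to 8.16 (median 8.08) in Mdr2-KO/IL6-KO arrays, 7.94, 7.84, 7.87, 7.96 and 7.89 in Mdr2-KO arrays, and 8.20, 8.44 and 8.48 in wild-type arrays. No knockout array reached a wild-type one. Ppm1d fell by 0.30 in Mdr2-KO/IL6-KO (SE 0.07, limma adjusted p = 0.00881, and 0.0545 without wild-type replicate 3) and by 0.48 in Mdr2-KO (SE 0.07, adjusted p = 0.000458). Rpl5, a ribosomal protein that can bind MDM2, rose by 0.45 in Mdr2-KO/IL6-KO (adjusted p = 0.0144, and 0.0942 without wild-type replicate 3) and by 0.78 in Mdr2-KO (SE 0.12, adjusted p = 0.000435). Between the knockout groups Rpl5 was the gene that fell, by 0.32 (adjusted p = 0.0473), a call that ended with 10 of 14 single arrays left out. It lies on chromosome 5, 99.0 megabases from Abcb4 and 77.9 from Il6. Whether sequence linked to either targeted allele reaches it was not tested. Igfbp7, Cxcl10 and Diablo, described below, lie on the same chromosome, 68.5, 83.5 and 114.6 megabases from Abcb4. From Il6 they lie 47.3, 62.3 and 93.5 megabases away. Usp7, a protease that removes ubiquitin from MDM2 and p53, fell by 0.29 in Mdr2-KO (adjusted p = 0.0303), and Kat5, an acetyltransferase of p53, rose by 0.22 in Mdr2-KO/IL6-KO (adjusted p = 0.0286). The Usp7 call ended with 5 of 14 single arrays left out. The Kat5 call ended with 3 of 14 and also after quantile normalization (0.0546) or centring (0.0826).

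All 23 genes of the CDK inhibitor and RB list were measured. In Mdr2-KO against wild type 1 rose and 3 fell, in Mdr2-KO/IL6-KO against wild type 0 passed in limma, and between the knockout groups 1 fell, where 21%, 12.3% and 8.76% of all genes passed. The first count was 2, 1 in each direction, without wild-type replicate 1 or 3 or Mdr2-KO replicate 2 or 5. The second count was 1 without wild-type replicate 2 (higher), wild-type replicate 3 or Mdr2-KO/IL6-KO replicate 6 (lower), and after centring (lower). Cdkn2c encodes p18INK4c, the relative of p16INK4a. Its level was 7.60 to 7.91 (median 7.84) in Mdr2-KO/IL6-KO arrays, 8.17, 8.18, 8.24, 8.33 and 7.95 in Mdr2-KO arrays, and 7.72, 7.66 and 7.08 in wild-type arrays. The Mdr2-KO arrays lay above those of both other groups. Cdkn2c rose by 0.69 in Mdr2-KO against wild type (SE 0.13, limma adjusted p = 0.0021). It was lower by -0.39 in Mdr2-KO/IL6-KO than in Mdr2-KO (SE 0.11, adjusted p = 0.0347), a call that ended with 8 of 14 single arrays left out. Ccnd2, cyclin D2, fell by 0.71 in Mdr2-KO against wild type (SE 0.14, adjusted p = 0.00318), with no overlap, and its difference in Mdr2-KO/IL6-KO, the largest there, was -0.40 (adjusted p = 0.0714). Cdkn1b, which encodes p27, and Cdk2 fell by 0.27 and 0.22 in Mdr2-KO (adjusted p = 0.0299 and 0.033), calls that ended with 6 and 5 of 14 single arrays left out.

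Of 19 proliferation genes 18 were measured, and 0 passed in limma in any comparison. The largest differences were -0.40 for Mcm4 in Mdr2-KO/IL6-KO against wild type (adjusted p = 0.174), and for Cdk1 -0.42 in Mdr2-KO against wild type (adjusted p = 0.35) and 0.44 between the knockout groups (adjusted p = 0.274). The list's median differences were 0.02 in Mdr2-KO, 0.00 in Mdr2-KO/IL6-KO and 0.01 between them. Between the knockout groups 1 gene fell after centring and without wild-type replicate 2 or 3, and in Mdr2-KO against wild type 1 rose without wild-type replicate 2.

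Of 26 secreted factors of the senescence programme 23 were measured. In Mdr2-KO against wild type 2 rose and 3 fell, in Mdr2-KO/IL6-KO against wild type 4 rose and 1 fell, and between the knockout groups 3 rose and 0 fell. Of all genes 21%, 12.3% and 8.76% passed in either direction. The list's medians were -0.08, 0.21 and 0.27, and those of all genes -0.07, -0.02 and 0.06. The first count was 3 in all without wild-type replicate 3 or Mdr2-KO replicate 1, and the second 3 without wild-type replicate 1. The third was 1 without Mdr2-KO replicate 1, 2 or 3 or Mdr2-KO/IL6-KO replicate 2, and 5 without Mdr2-KO replicate 5 or Mdr2-KO/IL6-KO replicate 1. Mmp12, the macrophage elastase, ran from 8.66 to 9.50 (median 9.04) in Mdr2-KO/IL6-KO arrays. It was 8.57, 8.64, 7.01, 8.91 and 8.86 in Mdr2-KO arrays, and 5.98, 6.56 and 6.49 in wild-type arrays. All knockout arrays were above wild type, with Mdr2-KO replicate 3 nearest to it. The rise was 2.71 in Mdr2-KO/IL6-KO (SE 0.33, limma adjusted p = 0.000106) and 2.05 in Mdr2-KO (SE 0.34, adjusted p = 0.000996). Plat, tissue plasminogen activator, rose by 1.13 in Mdr2-KO/IL6-KO livers (SE 0.18, adjusted p = 0.00073) and by 0.63 in Mdr2-KO (SE 0.18, adjusted p = 0.0236, ended with 3 of 14 single arrays left out).

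Timp1, an inhibitor of metalloproteinases, rose by 0.95 (limma adjusted p = 0.00859, and 0.052 without wild-type replicate 1) and Igfbp7, a secreted insulin-like growth factor binding protein, by 0.58 (adjusted p = 0.00617) in Mdr2-KO/IL6-KO against wild type. Igfbp3, another such binding protein, fell by 0.99 in Mdr2-KO (SE 0.17, adjusted p = 0.00102) and by 0.52 in Mdr2-KO/IL6-KO (adjusted p = 0.0439), and was 0.47 higher in Mdr2-KO/IL6-KO than in Mdr2-KO (adjusted p = 0.0451). Its first call held with any 1 array left out, and the other 2 each ended with 9 of 14. The call between the knockout groups also ended after centring (adjusted p = 0.0691). Cxcl10, an interferon-induced chemokine, and Tgfb1 fell by 1.02 and 0.35 in Mdr2-KO (adjusted p = 0.041 and 0.0237), calls that ended with 6 and 3 of 14 single arrays left out. Between the knockout groups the monocyte chemokine Ccl2 rose by 0.96 (SE 0.26, adjusted p = 0.0344) and Ccl20, a chemokine for CCR6-bearing lymphocytes, by 0.47 (SE 0.11, adjusted p = 0.0152). The Ccl2 call ended with 4 of 14 single arrays left out, and the Ccl20 call with none. Other cell types moved alongside: 4 of 6 recruited macrophage markers rose in both knockout groups, and their sum was 10.85 to 11.01 in Mdr2-KO/IL6-KO, 10.55 to 10.92 in Mdr2-KO and 9.95 to 10.37 in wild-type arrays. Of 7 bile duct markers 5 rose in Mdr2-KO/IL6-KO and 4 in Mdr2-KO, with sums of 10.29 to 11.41, 10.34 to 11.12 and, in wild type, 9.19 to 9.84. Of 8 stellate and fibroblast markers 3 rose and 1 fell in each knockout group against wild type. They summed to 12.35 to 12.63 in Mdr2-KO/IL6-KO, 11.95 to 12.49 in Mdr2-KO and 12.27 to 12.37 in wild-type arrays. The part of these cells in the rises was not tested.

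Of 18 genes of the BCL2 family and caspases 16 were measured. In Mdr2-KO against wild type 2 rose and 2 fell, in Mdr2-KO/IL6-KO against wild type 2 rose and 1 fell, and between the knockout groups 1 fell. The corresponding shares of all genes were 21%, 12.3% and 8.76%. The last count was 2, 1 in each direction, without wild-type replicate 2, Mdr2-KO replicate 2 or Mdr2-KO/IL6-KO replicate 1. Bcl2l1, which encodes the survival protein BCL-XL, ran from 7.47 to 8.07 (median 7.61) in Mdr2-KO/IL6-KO arrays. It was 7.74, 7.80, 7.63, 7.68 and 7.78 in Mdr2-KO arrays, and 7.09, 6.99 and 7.21 in wild-type arrays. Every knockout array was above every wild-type one. Bcl2l1 rose by 0.61 in Mdr2-KO/IL6-KO (SE 0.11, limma adjusted p = 0.00181) and by 0.63 in Mdr2-KO (SE 0.11, adjusted p = 0.00164). Bok, a relative of Bax, rose by 0.51 (SE 0.07, adjusted p = 0.000272) and 0.45 (SE 0.07, adjusted p = 0.000683). Casp8, the initiator caspase of death receptors, fell by 0.59 in Mdr2-KO/IL6-KO livers (SE 0.09, adjusted p = 0.000752) and by 0.43 in Mdr2-KO (SE 0.10, adjusted p = 0.00629), with no overlap. Diablo, which blocks inhibitors of apoptosis, fell by 0.22 in Mdr2-KO (adjusted p = 0.0325, ended with 5 of 14 single arrays left out), and Xiap, such an inhibitor, fell by 0.46 in Mdr2-KO/IL6-KO against Mdr2-KO (SE 0.09, adjusted p = 0.00603, held with any 1 left out).

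All 17 genes of the ATF4 response, which also induces Sesn2, were measured. In Mdr2-KO against wild type 2 rose and 1 fell, in Mdr2-KO/IL6-KO against wild type 3 rose and 0 fell, and between the knockout groups 1 rose, Atf3. Beside these counts of 17 stand 21%, 12.3% and 8.76% of all genes. The count in Mdr2-KO/IL6-KO against wild type was 0 without wild-type replicate 1 and 1 without wild-type replicate 2 or 3 or Mdr2-KO/IL6-KO replicate 2. Ddit3, which encodes the stress factor CHOP, rose by 0.23 in Mdr2-KO/IL6-KO (adjusted p = 0.0314 in limma, 0.0656 after quantile normalization and 0.0915 after centring, ended with 5 of 14 single arrays left out) and by 0.29 in Mdr2-KO (SE 0.07, adjusted p = 0.00851). Atf3 held 7.30 to 8.89 (median 7.65) in Mdr2-KO/IL6-KO arrays, 6.91, 6.98, 7.11, 7.18 and 7.24 in Mdr2-KO arrays, and 6.96, 7.20 and 6.85 in wild-type arrays. All Mdr2-KO/IL6-KO arrays were higher, with replicate 1 farthest. Atf3 rose by 0.81 against wild type (SE 0.24, adjusted p = 0.0388) and by 0.74 against Mdr2-KO (SE 0.21, adjusted p = 0.0396), and after centring neither passed (adjusted p = 0.0514 and 0.0585). These calls ended with 6 and 7 of 14 single arrays left out. Slc7a11, the cystine transporter, rose by 0.77 in Mdr2-KO/IL6-KO against wild type (adjusted p = 0.0251, but 0.0637 without wild-type replicate 1 and 0.108 without replicate 2), with the wild-type mean under the background level. In Mdr2-KO, Eif4ebp1, a repressor of translation, rose by 0.28 (adjusted p = 0.0201, but 0.0572 without wild-type replicate 2 and 0.069 without replicate 3), and Asns, asparagine synthetase, fell by 0.49 (adjusted p = 0.0283, and 0.119 after quantile normalization) to a mean under the background level. The Asns call also ended without wild-type replicate 2 (0.115), Mdr2-KO replicate 1 (0.0614) or Mdr2-KO replicate 4 (0.053).

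**Figure D5:**
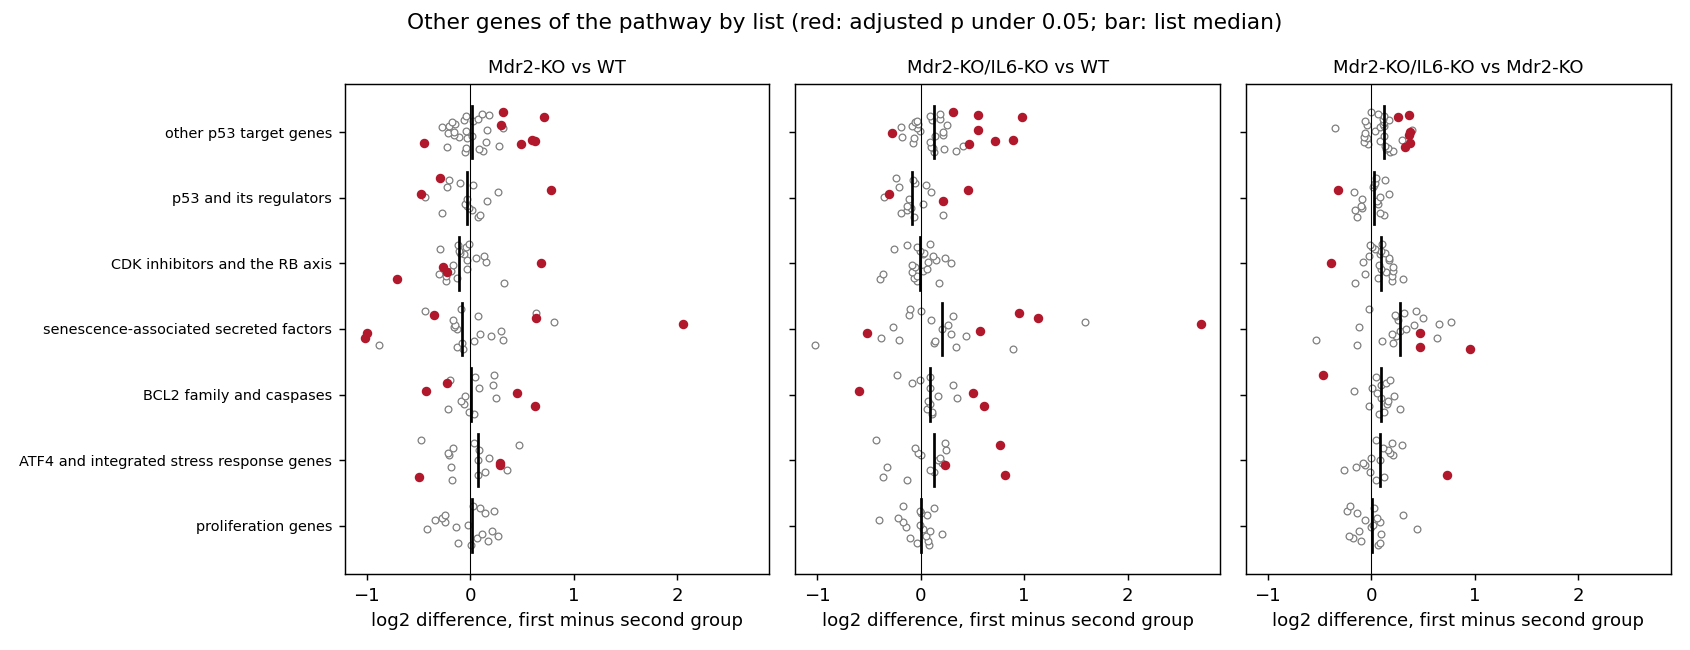
Log2 difference (horizontal axis, first-named minus second-named group) of every measured gene of the 7 further lists in the 3 comparisons, red where the adjusted p was under 0.05, with a bar at each list's median. The medians lie between -0.10 and 0.27, and the proliferation genes hold no red point.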

How the data were processed

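The deposited table holds log2 values of 14 arrays of liver RNA. The authors made these log2 values with Partek and RMA, per the submitters' processing notes; their versions, the build, filters and pooling: not given in the sources used here, and the labels give no batch or scan date. RMA makes the arrays' distributions alike but leaves probes unequal in sensitivity, so levels of different probes were not compared. The table has 35557 probes, of which the array annotation gives 21789 to 1 gene, 1621 to several and 12147 to none. Symbols were updated for 21698 by gene identifier, and the brightest probe stood for each of the 999 genes with several probes.

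All 19938 genes entered limma 3.58.1 (R 4.3.3) without a filter: 3 group means over 14 arrays, empirical Bayes moderation, a 2-sided test, Benjamini-Hochberg adjustment and a threshold of 0.05. Intervals are 95% and unadjusted. Python 3.11.15 and matplotlib 3.10.9 did the rest. The fit was tested on simulated data.

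The members, the 7 further lists (148 of 157 genes measured), the cell markers and the tests were chosen with earlier results of these data known. Named were all members, up to 4 genes past the test per list and comparison by size, or the largest where none passed, and 3 genes of like pattern for Mdm2 and Ccng1 (for Cdkn1a none could be sought). The named genes outside this rule are Eda2r and Perp as falls, Tgfb1, and 4 genes by the gap of 1 array, and they were picked after their values were seen. The small groups of 6, 5 and 3 arrays limit precision, as does the background, under which 29% of genes lie. Alternatives were quantile normalization, centring on array medians, a filter on dim genes (13292 kept), probe means per gene, all probes, trend and robust moderation, array weights, a fit of 2 groups at a time, a minimum change of 1.5-fold and each array left out.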

Additional observations from a re-analysis of the deposited data

Results flagged for a closer look

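In 5 of 16 groups of values checked, which are the 7 measured members and the probe shared by Cdkn1a in both knockout groups, 1 array stood far from the rest by Dixon's 95% value. The value marks about 1 in 20 among independent groups with normal spread. These 16 share their arrays, and several marks fall on the same array. The share over all genes was not computed, so the count cannot be set against chance. Replicate 1 of the Mdr2-KO/IL6-KO group held the highest value of Trp53inp1 (10.78, next 9.78), Btg2 (10.15, next 8.61) and Sesn2 (7.05, next 6.76). Replicate 2 of the same group held the lowest value of Ccng1 (9.59, next 10.01), and was also highest of its group for 4 of 4 neutrophil and 5 of 7 hepatocyte markers, against 16.8% of all genes. In the Mdr2-KO group, replicate 3 held the highest value of Btg2 (8.92, next 8.12), and it was highest for 4 of 4 neutrophil markers and 9 of 18 proliferation genes, against 20.1% of all genes. The lists named had the largest shares for each of these arrays. Whether they bear on the values was not tested.

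Probe 10443463 is given by the annotation to both 4930567H12Rik and Cdkn1a, so it was not used as either gene. Its log2 values were 10.11, 9.10, 8.32, 8.22, 8.61 and 8.32 in Mdr2-KO/IL6-KO arrays, 8.86, 8.29, 8.31, 8.41 and 7.13 in Mdr2-KO arrays, and 6.53, 7.29 and 7.04 in wild-type arrays. All Mdr2-KO/IL6-KO arrays lay above wild type, and Mdr2-KO replicate 5 lay among the wild-type arrays. The difference was 1.83 for Mdr2-KO/IL6-KO minus wild type (SE 0.40, limma adjusted p over all probes 0.0133), where 7.72% of all probes passed. It was 1.25 for Mdr2-KO minus wild type (SE 0.42, adjusted p = 0.0541) and 0.58 for Mdr2-KO/IL6-KO minus Mdr2-KO (SE 0.35, adjusted p = 0.287), where 17.1% and 8.28% of probes passed. Which of the 2 genes the signal comes from cannot be told from this table.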

How the results depend on the processing

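Of 462 recomputed differences of members, 449 kept their direction and their side of the threshold, and 10 turned sign, all of them differences that did not pass the test. With arrays centred on their medians these were Cdkn2b for Mdr2-KO/IL6-KO minus wild type (-0.017), and Mdm2 (-0.016) and Trp53inp1 (-0.017) for Mdr2-KO/IL6-KO minus Mdr2-KO; array quality weights gave -0.045 for Trp53inp1. With each array left out, Mdr2-KO/IL6-KO minus wild type ran from -0.023 to 0.091 for Cdkn2b (turned without wild-type replicate 2) and from -0.011 to 0.12 for Sesn2 (without wild-type replicate 1). Mdr2-KO/IL6-KO minus Mdr2-KO ran from -0.16 to 0.10 for Trp53inp1 (turned without Mdr2-KO/IL6-KO replicate 1, and to -0.044 and -0.0096 without Mdr2-KO replicates 3 and 5) and from -0.038 to 0.48 for Btg2 (without Mdr2-KO/IL6-KO replicate 1). Members passing in Mdr2-KO against wild type were 0 at a 1.5-fold minimum and 0 to 2 with an array left out: 0 without wild-type replicate 1 or 3, and 2 without Mdr2-KO/IL6-KO replicate 2. In the other comparisons the count was 0 under all 23 alternatives. Of all genes, 4189, 2450 and 1746 passed in Mdr2-KO against wild type, Mdr2-KO/IL6-KO against wild type, then between the knockout groups, and 799, 748 and 150 at the 1.5-fold minimum. With an array left out the counts ran from 2140 (without wild-type replicate 3) to 4507, from 1635 to 2544, and from 754 (without Mdr2-KO replicate 1) to 2164; Mdr2-KO replicates 3 and 4 and Mdr2-KO/IL6-KO replicates 4 and 5 also lowered the last, to 932, 999, 1055 and 1045. Over all probes 2944 passed between the knockout groups. Scaling moved the split of higher against lower calls: 1388 and 1062 in Mdr2-KO/IL6-KO against wild type became 1006 and 1573 after centring, and 1005 and 741 between the knockout groups became 424 and 1056, or 675 and 852 after quantile normalization. The causes were not tested. No paired analysis was possible because the labels give the groups no shared replicate numbers.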
